A study of Mus musculus with 4 samples.

Results

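The 10 genes described here encode the tight junction proteins and the transporters that are most used to define the blood-brain barrier: Cldn5, Ocln and Tjp1 for the junctions, Slc2a1, Mfsd2a and Slc7a5 for the uptake of nutrients and lipids, Abcb1a and Abcg2 for efflux, and Slco1a4 and Slco1c1 for organic anions. They were chosen by name, and all 10 of 10 were found among the 31557 gene symbols of the count table. The counts come from single cells sorted for nestin-GFP from the dentate gyrus, the region of the hippocampus in which neurons are born in the adult. The cells were taken from 8 male nestin-GFP mice. At 2 months of age, 4 mice had been infused into the cerebral ventricle with Ant-132, an antagomir against miR-132 made as a cholesterol-modified locked nucleic acid (LNA) oligonucleotide, in 2 µl at 0.33 nmol/ml of artificial cerebrospinal fluid. The other 4 mice had received a scrambled LNA oligonucleotide in the same fluid, at a dose not given here. The labels of all 4 samples, the scrambled ones included, carry 2 months at injection and 3 months at analysis. Their shared protocol states these ages of the antagomir-injected animals and names no separate age for the scrambled mice. All groups carry the reporter, so the vascular and glial cells seen here are those that passed a gate for it, and their number is not that of the tissue.

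The blood-brain barrier is formed by the endothelial cells of brain vessels, which are joined by tight junctions and have little vesicle traffic. What crosses does so mainly through carriers in the endothelial membrane, while efflux pumps return many lipid-soluble compounds to the blood. Mural cells (pericytes and smooth muscle cells) and the endfeet of astrocytes surround the endothelium and help to maintain it. Several of the carriers are also known outside the endothelium, in glia among others.

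Wells with 500 to 6000 detected genes were kept, 716 of 768, with a median of 650777 counts each and 43996495 to 69191485 counts per mouse. Clusters were formed without the 10 genes and without the other barrier genes described below, so neither entered the definition of the classes. Named by their markers, they gave 87 endothelial-like wells (18 of 19 endothelial markers in at least 25% of wells), 84 mural-like wells (15 of 18 mural markers), 300 oligodendrocyte-like wells (16 of 17) and 169 radial glia-like (RGL) or astrocyte-like wells (17 of 17). Endothelial-like wells were led by Ly6c1, Ly6a and Flt1, and Pecam1 was among their 10 leading genes. Their wells per mouse were unevenly spread, 19, 17, 13, 5, 11, 11, 3 and 8 in mice 1 to 8. A mouse entered a comparison of sums with at least 5 wells of the class, so mouse 7 (scrambled, 3 wells) is missing from every endothelial-like value below and n is 7 mice, 3 scrambled and 4 antagomir. Levels are CPM, the summed counts of a mouse and class scaled to a common total, and errors are SDs over mice.

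Of the promoters of the members, 4 are printed because they belong to genes that were all high in endothelial-like cells and yet differ in what else expressed them: Cldn5 and Slco1a4 had almost no counts in the other large classes, while Mfsd2a and Slco1c1 were also found in RGL or astrocyte-like wells. Each is the 250 bases before the start site in RefSeq (build GRCm38.p6), on the strand of the gene. Capitals mark the core of an SP1 site, GGGCGG when read on either strand.
Cldn5, chr16:18776597-18776846, plus strand: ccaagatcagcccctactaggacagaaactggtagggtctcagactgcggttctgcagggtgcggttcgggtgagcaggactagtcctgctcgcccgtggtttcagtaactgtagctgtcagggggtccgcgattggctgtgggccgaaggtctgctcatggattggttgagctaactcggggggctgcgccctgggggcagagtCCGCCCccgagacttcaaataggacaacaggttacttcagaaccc
Mfsd2a, chr4:122961189-122961438, minus strand: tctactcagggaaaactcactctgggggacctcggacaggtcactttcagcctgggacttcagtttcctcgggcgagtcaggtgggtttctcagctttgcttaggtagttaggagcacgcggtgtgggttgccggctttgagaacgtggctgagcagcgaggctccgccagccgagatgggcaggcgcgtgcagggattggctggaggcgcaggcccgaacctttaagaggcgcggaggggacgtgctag
Slco1a4, chr6:141856221-141856470, minus strand: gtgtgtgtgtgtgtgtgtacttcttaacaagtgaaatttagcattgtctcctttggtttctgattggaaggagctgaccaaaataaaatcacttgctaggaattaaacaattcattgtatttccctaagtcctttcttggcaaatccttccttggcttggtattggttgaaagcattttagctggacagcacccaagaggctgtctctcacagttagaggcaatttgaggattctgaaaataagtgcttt
Slco1c1, chr6:141524104-141524353, plus strand: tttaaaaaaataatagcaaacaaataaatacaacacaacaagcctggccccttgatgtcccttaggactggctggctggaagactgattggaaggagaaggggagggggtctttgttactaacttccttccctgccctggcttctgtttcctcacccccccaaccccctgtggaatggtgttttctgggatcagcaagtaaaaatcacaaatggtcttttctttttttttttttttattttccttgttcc

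RefSeq gave promoters for 9 of the 10 members. The SP1 core occurred 1 time in the Cldn5 window, and none of the 5 motifs searched was found in those of Mfsd2a, Slco1a4 and Slco1c1. Both strands were searched, and no motif contains another. GGGCGG, the core for SP1, was found in 32.7% of 32851 promoters of the same length. CCGGAAG, read by ETS factors, was found in 6.91% of them. For CTTTGAT, read by TCF/LEF factors of the Wnt pathway, the share was 3.21%. For TGTTTAC, read by FOX factors, it was 3.17%. The TATA box was searched as TATAAA and found in 12.4%. GC content was 59.6% for Cldn5 and 61.6% for Mfsd2a, against 39.2% for Slco1a4 and 42.8% for Slco1c1, with a median of 52.4% over all promoters. The windows of Cldn5 and Mfsd2a held 12 and 17 CpG dinucleotides and those of both Slco genes 0, beside a median of 6 over all promoters. A match or its absence describes these letters only.

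The antagomir is directed at miR-132, whose mature sequence in RefSeq is given with its seed (bases 2 to 8) in capitals, followed by the matches to that seed in the members.
mmu-miR-132-3p: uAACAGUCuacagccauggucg
Ocln, chr13:100498400-100498406, minus strand: agccctcaggtGACTGTTatttagaatca
Ocln, chr13:100497248-100497254, minus strand: cgagtaggaaaGACTGTTtggagctcctt
Among the longest 3′ untranslated regions of the 10 members in GENCODE M21, GACTGTT was found in Ocln alone, at these 2 positions, and the former is followed by an A. The same letters occurred in 2252 of 21028 genes (10.7%), so 1 member of 10 is near the share over all genes. The level of mature miR-132 was not analysed here.

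Every member was higher in endothelial-like than in mural-like, oligodendrocyte-like and RGL or astrocyte-like wells by its mean over mice, but the size ran from 1.90-fold to differences in which the other class held no count at all. By edgeR's quasi-likelihood test with Benjamini-Hochberg adjustment, 9 of 10 members were higher in endothelial-like than in mural-like cells, where 4.73% of the 14952 genes tested were called higher. Against oligodendrocyte-like cells 10 of 10 were called (7.32% of all genes), and against RGL or astrocyte-like cells 8 of 10 (5.97%). All 10 members passed the filter on low counts, which they could do through the endothelial-like sums alone. The median difference of log2(CPM + 1) of the mean levels was 8.36 for the members against mural-like cells, beside -0.01 for all genes tested, 8.28 beside -0.01 against oligodendrocyte-like cells and 6.95 beside -0.16 against RGL or astrocyte-like cells. Fitted log2 differences against a class near 0 depend on the model's prior count and are not given. Cells of 1 class in 1 mouse were summed, so fewer cells with a transcript and fewer transcripts per cell cannot be told apart in these sums; the shares of wells are given beside them.

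**Figure D1:**
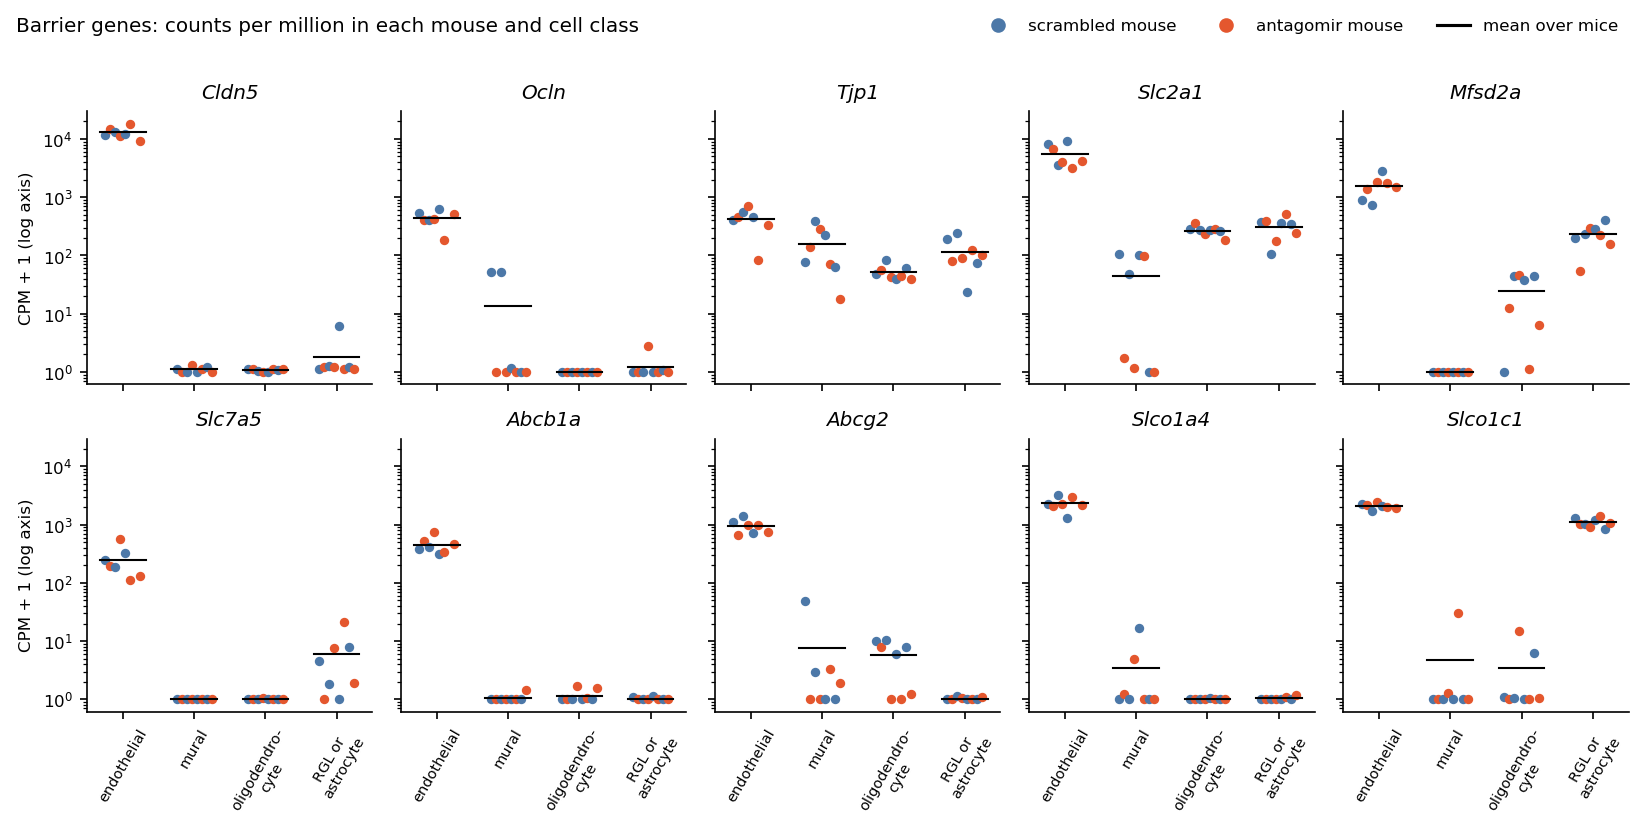
Each point is the summed level of a gene in 1 mouse and class, as CPM + 1 on a log axis, with scrambled mice in blue and antagomir mice in orange; the bar is the mean over mice with at least 5 wells of the class. Cldn5, Abcb1a, Slco1a4 and Slc7a5 were at 20.5 CPM or less in every sum of the other 3 classes shown, while Tjp1, Slc2a1, Mfsd2a and Slco1c1 reached 383, 504, 412 and 1413 CPM there.

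Cldn5, the claudin that seals brain endothelial junctions (chr16:18776847-18778262 in GRCm38, plus strand), was found in nearly every endothelial-like well. Its endothelial-like sums ran from 9109 to 18340 CPM with a median of 12017 (mean 12924 ± 2972, SD, n = 7). No sum of the other 3 classes exceeded 5.16 CPM, and the groups did not overlap. It was called against all 3 classes (adjusted p = 9.38e-11, 1.83e-11 and 1.94e-10 against mural-like, oligodendrocyte-like and RGL or astrocyte-like wells, edgeR). Of 87 endothelial-like wells, 86 had at least 10 counts of Cldn5, against 0 of 84 mural-like, 0 of 300 oligodendrocyte-like and 1 of 169 RGL or astrocyte-like wells. At 1 count or more the shares were 98.9%, 5.95%, 4.67% and 9.47%. The low shares in the other classes thus rest almost wholly on wells with under 10 counts. What these few counts come from was not tested.

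Ocln, an occludin of the junction strands (chr13:100496507-100552718, minus strand), was lower and more patchy. Its endothelial-like sums ran from 180 to 622 CPM with a median of 419, and 65.5% of wells had counts (Wilson 95% interval 55.1% to 74.7%). In mural-like cells 2 of the 84 wells had at least 10 counts, from mice 1 and 3, which gave sums of 50.8 and 50.0 CPM, while every other mural-like sum was at 0.187 CPM or less. Oligodendrocyte-like cells had 0 counts in 300 wells, which allows a share of up to 1%, and Ocln was at least 34451-fold higher over the endothelial-like wells against a floor of 3 counts over the class. The endothelial-like and mural-like groups did not overlap (adjusted p = 0.00973, edgeR), but with only mice of at least 10 wells per class the call was lost (adjusted p = 0.112; range over all alternatives 5.99e-08 to 0.112). Against RGL or astrocyte-like cells the adjusted p was 0.000707.

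Tjp1, the scaffold that ties junction proteins to actin (chr7:65296165-65527781, minus strand), was the member whose endothelial-like sums overlapped those of all 3 other classes. It averaged 427 ± 191 CPM in endothelial-like cells (n = 7), 156 ± 127 in mural-like (n = 8), 114 ± 68.5 in RGL or astrocyte-like (n = 8) and 50.9 ± 15.4 in oligodendrocyte-like cells (n = 8). The sum of 82.3 CPM in mouse 6 was below the highest sum of each other class, and against mural-like cells, which reached 383 CPM, so was that of mouse 8 (334 CPM). Within mice, the endothelial-like sum was the higher in 7 of 7, 7 of 7 and 6 of 7 against mural-like, oligodendrocyte-like and RGL or astrocyte-like wells. By edgeR the log2 difference was 2.55 ± 0.59 (SE) against oligodendrocyte-like cells (adjusted p = 0.00235). It was 1.67 ± 0.57 against mural-like (adjusted p = 0.0658) and 1.54 ± 0.58 against RGL or astrocyte-like cells (adjusted p = 0.0585), so neither passed. Both passed with DESeq2 (adjusted p = 0.00954 and 0.0171) and without the mouse as a block (0.0434 and 0.0356), and the latter passed also without mouse 6 (0.0413). Over all alternatives the adjusted p ran from 0.00954 to 0.404 against mural-like and from 0.0171 to 0.297 against RGL or astrocyte-like cells. Counts were found in 80.5% of endothelial-like, 53.6% of mural-like, 50.7% of oligodendrocyte-like and 52.7% of RGL or astrocyte-like wells.

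Slc2a1, which encodes the glucose carrier GLUT1 (chr4:119108711-119137983, plus strand), had endothelial-like sums of 3128 to 9331 CPM and a median of 4260. Both glial classes held it too, with 180 to 358 CPM in the oligodendrocyte-like class and 106 to 504 CPM in the RGL or astrocyte-like class. These 2 groups overlapped each other and neither overlapped the endothelial-like sums, which on average were 20.9-fold and 17.9-fold higher (adjusted p = 0.00537 and 0.00683, edgeR). In mural-like cells the sums split into 4 mice at 46.4 to 107 CPM and 4 at 0.765 CPM or less, and 7 of 84 wells had at least 10 counts, of which 1 also had 10 counts of Pecam1 and 3 of Flt1. Against mural-like cells the difference was 126-fold (adjusted p = 5.61e-05).

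The glial wells with Slc2a1 were also read for Cldn5, Slco1a4, Pecam1 and Flt1. At least 10 counts of Slc2a1 were found in 209 of 300 oligodendrocyte-like and 83 of 169 RGL or astrocyte-like wells, with a median of 260 and 251 counts in those wells. None of these 209 and 83 wells had 10 counts of Cldn5, Slco1a4, Pecam1 or Flt1. Over all wells of a class, the summed endothelial markers were at 0.531 to 58.8 CPM in oligodendrocyte-like sums. They were at 0.299 to 14.8 CPM in RGL or astrocyte-like and at 30707 to 39457 CPM in endothelial-like sums. Among the 3 oligodendrocyte-like clusters the share of wells at 10 counts was 67.7%, 74.2% and 71.3%. Among RGL or astrocyte-like wells it was 71.6% in the cluster of 88 wells led by F3 and Btbd17, and 24.7% in the cluster of 81 wells led by Mt3, whose wells were shallower (median 340578 against 687913.5 counts) and came to 74.1% from sequencing pool L6, against 47.7% for the other; the part of depth and pool in this difference was not tested.

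Mfsd2a, the carrier of lysophospholipids with omega-3 fatty acids, known also for holding down vesicle traffic in barrier endothelium (chr4:122946850-122961188, minus strand), had endothelial-like sums of 726 to 2812 CPM with a median of 1505. It had 0 counts in the 84 mural-like wells, which allows a share of up to 3.57%, and was at least 20396-fold higher in endothelial-like wells against a floor of 3 counts over the class. RGL or astrocyte-like sums ran from 53.2 to 412 CPM with a median of 228, below every endothelial-like sum. The difference was 6.72-fold in mean level, with a fitted log2 difference of 2.74 ± 0.92 (SE, adjusted p = 0.0396, edgeR). This call did not hold when mouse 2, 3, 4, 5, 7 or 8 was left out (adjusted p = 0.0983, 0.0648, 0.0707, 0.0787, 0.0566 and 0.0953) and with at least 10 wells per class (0.103), with a range over all alternatives of 0.0157 to 0.103. Of 72 RGL or astrocyte-like wells with at least 10 counts of Mfsd2a, 1 had 10 counts of Cldn5 and 0 had 10 counts of Slco1a4, Pecam1 or Flt1. In oligodendrocyte-like cells 21 of 300 wells reached 10 counts, and sums ran from 0 to 44.8 CPM.

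Slc7a5, which encodes the large neutral amino acid carrier LAT1 (chr8:121881150-121907694, minus strand), had sums of 113 to 561 CPM and a median of 193. Counts were found in 67.8% of endothelial-like wells, in 0 of 84 mural-like wells, in 1 of 300 oligodendrocyte-like wells (1 count) and in 13 of 169 RGL or astrocyte-like wells. Over wells it was at least 3672-fold higher than in mural-like cells, against a floor of 3 counts over that class. In RGL or astrocyte-like cells sums reached at most 20.5 CPM, and the groups did not overlap. The adjusted p was 1.19e-05, 2.43e-06 and 0.00227 against mural-like, oligodendrocyte-like and RGL or astrocyte-like wells (edgeR).

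Abcb1a and Abcg2, the efflux pumps P-glycoprotein and BCRP, were each detected in 74 of 87 endothelial-like wells (85.1%). Abcb1a (chr5:8660077-8748575, plus strand) ran from 316 to 737 CPM with a median of 407. It had 1 count in all mural-like wells, 2 counts in all RGL or astrocyte-like wells and 37 in all oligodendrocyte-like wells. Its related neighbour Abcb1b, with which some reads could be shared, was at 1.66 CPM in endothelial-like cells. Abcg2 (chr6:58584523-58695676, plus strand) ran from 657 to 1405 CPM with a median of 971. It had low sums elsewhere, up to 47.5 CPM in 1 mural-like mouse and up to 9.30 CPM in oligodendrocyte-like cells, and 3 counts in all RGL or astrocyte-like wells. Neither overlapped any other class, and adjusted p-values ran from 1.54e-06 (Abcb1a against RGL or astrocyte-like) to 0.000896 (Abcg2 against oligodendrocyte-like, edgeR).

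Slco1a4 and Slco1c1 both lie on chromosome 6 and encode organic anion carriers, Slco1c1 being a thyroxine carrier. Their endothelial-like levels were 2318 ± 626 and 2089 ± 239 CPM (n = 7), but RGL or astrocyte-like cells held only Slco1c1 in quantity. Slco1a4 (chr6:141805440-141856199, minus strand) ran from 1283 to 3169 CPM with a median of 2228, had counts in 95.4% of endothelial-like wells, and had 3 counts in all RGL or astrocyte-like and 2 in all oligodendrocyte-like wells. Of its near relatives, Slco1a5 had 0 counts in endothelial-like wells. Slco1c1 (chr6:141524368-141570177, plus strand) ran from 1723 to 2448 CPM with a median of 2056 in endothelial-like cells and from 827 to 1413 CPM with a median of 1045 in RGL or astrocyte-like cells.

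The 2 groups of Slco1c1 sums did not overlap, and every one of 7 mice had the higher level in its endothelial-like wells, by 1.90-fold on average. In the edgeR fit, which takes 1 spread for a gene over all 4 classes, the log2 difference was 0.86 with a 95% interval of -1.53 to 3.24 (adjusted p = 0.666), so the difference was not called. Against mural-like and oligodendrocyte-like cells, whose mean levels were 3.68 and 2.45 CPM, Slco1c1 was called (adjusted p = 4.89e-05 and 4.15e-05). Counts were found in 75.7% of RGL or astrocyte-like wells (Wilson 95% interval 68.8% to 81.6%) and in 88.5% of endothelial-like wells. Within the former, 85 of 88 wells of the cluster led by F3 and Btbd17 and 35 of 81 wells of the shallower cluster had at least 10 counts. Of the 120 RGL or astrocyte-like wells at 10 counts, 1 had 10 counts of Cldn5 and 0 had 10 counts of Slco1a4, Pecam1 or Flt1. The summed endothelial markers were at 0.299 to 14.8 CPM in this class, against 30707 to 39457 CPM in endothelial-like cells.

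**Figure D2:**
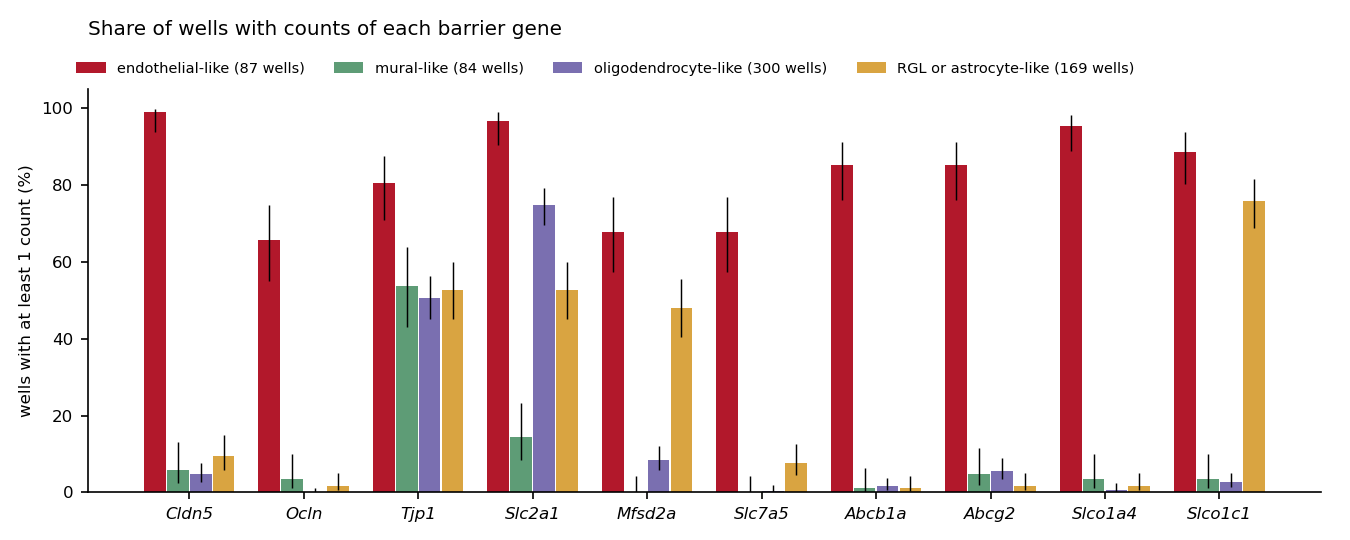
Bars give the share of wells with at least 1 count of each gene in the 4 classes, from 0 to 100%, and black lines the Wilson 95% interval, which covers counting error only. Slc2a1 stands out in oligodendrocyte-like wells (74.7%) and Slco1c1 in RGL or astrocyte-like wells (75.7%), while Tjp1 was found in at least 50.7% of the wells of every class.

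Of the 30 pairs of a member and a class, 27 did not overlap, with every endothelial-like sum above every sum of the other class. The exceptions were the 3 pairs of Tjp1. For all genes tested the share with such a separation was 2.09% against mural-like, 4.21% against oligodendrocyte-like and 3.74% against RGL or astrocyte-like cells. Among the small clusters, 25 neuroblast-like wells had at least 10 counts of a member in at most 2 wells for any member, and 0 counts of Cldn5, Ocln, Slco1a4 and Slco1c1. Of 12 fibroblast-like wells, 8 had 10 counts of Tjp1 and 2 of Slco1a4. The 39 wells left without a name, led by Frzb, had 10 counts of Slco1c1 in 13 wells, of Slc2a1 in 14, of Tjp1 in 15 and of Cldn5 in 0. These clusters were not tested.

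Per kilobase of exon (all exons of a gene in GENCODE M21), the order of the endothelial-like levels was Cldn5 (9127 ± 2099 CPM per kb), Slc2a1 (1588 ± 698), Mfsd2a (690 ± 308), Slco1c1 (403 ± 46.1), Slco1a4 (361 ± 97.7), Abcg2 (115 ± 32.3), Ocln (104 ± 33.2), Abcb1a (82.4 ± 26.1), Slc7a5 (67.3 ± 41.5) and Tjp1 (54.6 ± 24.4). Cldn5 stood above Slc2a1 in every sum (lowest 6433 against highest 2662 CPM per kb), and Slco1a4 above Abcg2 (200 against 172). All other neighbours in this order overlapped in their ranges over mice. The exon length counts every annotated transcript, so a gene with long, unused exons is placed too low.

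Within single endothelial-like wells the members were mostly found together. The median well had counts of 9 of the 10, 24 of 87 wells had all 10 and 66 (75.9%) had at least 8. At 10 counts or more, 82 of 87 wells held at least 5 members, against 0 of 84 mural-like, 0 of 300 oligodendrocyte-like and 3 of 169 RGL or astrocyte-like wells. The most members at 10 counts in 1 well were 2 in mural-like, 4 in the oligodendrocyte-like class and 5 in the RGL or astrocyte-like class.

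**Figure D3:**
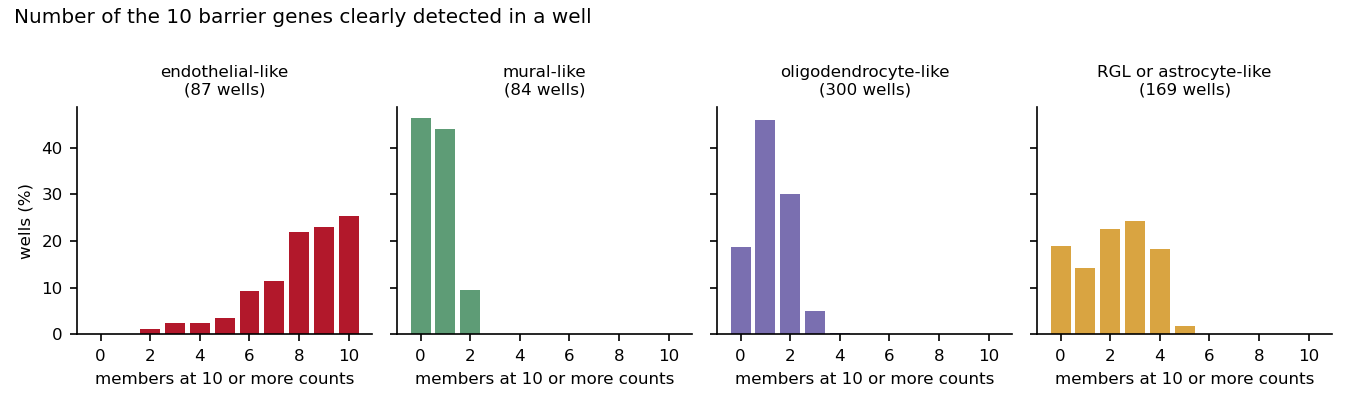
Each panel gives the share of wells (%) by the number of members with at least 10 counts. Endothelial-like wells lie mostly at 6 to 10 members, mural-like wells at 0 to 2, oligodendrocyte-like wells at 0 to 4 and RGL or astrocyte-like wells at 0 to 5.

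Wells with fewer members were shallower. The 6 wells with 5 members or fewer had a median of 830.5 detected genes, the 33 with 6 to 8 had 1794 and the 48 with 9 or 10 had 2112, so an absent member cannot be told apart from one that was missed. After thinning of each well to 100000 counts, which left out 4 shallower wells, Cldn5 was found in 99.2 ± 1.99% of the wells of a mouse (SD, n = 7), as before, and Mfsd2a in 69.3 ± 17.4% (69.5 ± 17.5% before). Among the members, Cldn5 varied least from well to well (SD 1.66 of log2(CPM + 1) over 87 wells) and Mfsd2a most (4.92). The 9 highest wells held 22.4% of all Cldn5 CPM and 53.8% of those of Slc7a5. Over the 87 wells, which share mice and depth, the highest correlation of log2(CPM + 1) between members was that of Cldn5 and Slco1a4 (Pearson r = 0.50) and the next that of Ocln and Slco1c1 (0.39).

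The 28 endothelial-like wells without a count of Mfsd2a were set beside the 59 with counts for 8 genes of vessel segments, as a description. Gkn3, known from arterial endothelium, had counts in 6 of the 28 and 1 of the 59. Slc16a1 and Tfrc, carriers of monocarboxylates and of transferrin-bound iron known from capillaries, had counts in 11 of the 28 wells each, against 41 and 37 of the 59. Vwf, known from larger vessels, had counts in 8 of the 28 and 15 of the 59. Bmx and Sema3g, known from arterial endothelium, had counts in 5 and 7 of the 28 and in 5 and 8 of the 59. Slc38a5, an amino acid carrier, had counts in 5 of the 28 and 17 of the 59, and Nr2f2, a venous transcription factor, in 1 and 2. Wells without Mfsd2a were also shallower (median 465559 against 707456 counts), and the part of depth was not tested.

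Genes whose levels over the 31 sums of a mouse and class were most like those of each member are given with Pearson r of log2(CPM + 1), out of 9689 genes averaging at least 20 CPM in a class. The sums share mice and depth, and r mostly reflects the contrast between classes. Cldn5 was most like Sox17 (0.997), Sox18 (0.996) and Ly6c1 (0.996). Abcb1a was most like Ly6c1 (0.997), Adgrl4 (0.997) and Sox18 (0.996), and Slco1a4 like Tek (0.987), Tdrp (0.984) and Sox17 (0.983). Ocln came closest to 8430408G22Rik (0.972), Atp10a (0.962) and Klf2 (0.957), Abcg2 to Akr1c14 (0.959), Klf2 (0.957) and Cd93 (0.948), and Slc7a5 to Bsg (0.958), Ceacam1 (0.957) and Slc16a4 (0.949). Members with counts in RGL or astrocyte-like cells came closest to genes also found there: Slco1c1 was most like Nebl (0.965), Mcc (0.965) and S1pr1 (0.960), and Mfsd2a like S1pr1 (0.915), Bhlhe40 (0.904) and Itga6 (0.891). S1pr1, a receptor of sphingosine-1-phosphate, averaged 2851 CPM in the endothelial-like class and 4754 CPM in the RGL or astrocyte-like class. Slc2a1 was most like Mkl2 (0.903), Adam15 (0.877) and Mpzl1 (0.854), and Tjp1 had the least similar neighbours, Arhgap27 (0.813), Bmpr2 (0.788) and Itih5 (0.776).

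Other genes of the barrier were read from 5 lists of textbook genes. Of 21 genes of nutrient and ion transport, 19 were tested and 13 were higher and 1 lower in endothelial-like than in mural-like cells (median difference of log2(CPM + 1) 4.78, beside -0.01 for all genes). Of all genes tested 4.73% were higher and 4.49% lower in this comparison. Slc16a1, the monocarboxylate carrier MCT1, was at 563 ± 169 CPM in endothelial-like cells (n = 7) and had 0 counts in mural-like cells (adjusted p = 9.38e-11, edgeR). Slc38a3, a glutamine carrier, was at 931 ± 513 CPM with 3 counts in all mural-like wells (6.19e-07), and Lrp8, a receptor of the LDL receptor family, at 163 ± 133 CPM with 0 counts (1.53e-05). Lrp1, another receptor of that family, was lower, at 2.46 ± 6.43 against 406 ± 193 CPM in mural-like cells (0.000243). In RGL or astrocyte-like cells Slc38a3 was at 827 ± 247, Slc16a1 at 96.5 ± 44.8, Lrp8 at 40.2 ± 20.6 and Lrp1 at 268 ± 113 CPM.

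Among 11 efflux and organic ion carriers, 9 were tested and 5 were higher and 0 lower (median difference 3.12). Abcc4, an efflux pump of organic anions, was at 650 ± 580 CPM against 3.36 CPM in mural-like cells, from 1 well (adjusted p = 0.000204, edgeR). Slco2b1, an organic anion carrier, was at 358 ± 80.1 against 0.230 ± 0.651 CPM (0.00293) and Abcc6 at 110 ± 89.7 against 0.183 ± 0.430 CPM (0.00462). The Slco2b1 call was lost with at least 10 wells per class (0.0764; range over all alternatives 2.08e-09 to 0.0764).

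The junction list was mixed, with 13 of 16 genes tested, 3 higher and 2 lower (median difference 1.09). Afdn, the junction scaffold afadin, was at 156 ± 91.4 CPM with 1 count in all mural-like wells (adjusted p = 1.14e-06, edgeR), and Lsr, the angulin of tricellular junctions, at 626 ± 106 against 0.244 ± 0.633 CPM (7.70e-06). Jam2, a junctional adhesion molecule, was at 658 ± 324 with 6 of 84 mural-like wells with counts (0.00850). In RGL or astrocyte-like cells Jam2 was at 277 ± 124 CPM and was not called against them (adjusted p = 0.770, edgeR). Afdn and Lsr were called higher against that class too (0.0453 and 2.37e-06). The 2 lower genes were Gja4, a connexin (6.08 ± 10.3 against 1003 ± 371 CPM, 0.00207), and Jam3, another junctional adhesion molecule (10.3 ± 19.1 against 155 ± 93.6 CPM, 0.0267). The call of Jam3 was lost without mouse 2, 3, 4 or 5 (0.0754 to 0.0880), and with at least 10 wells per class both Jam3 (0.0711) and Jam2 (0.0579) were lost. Over all alternatives the adjusted p ran from 6.39e-07 to 0.0880 for Jam3 and from 5.22e-07 to 0.0579 for Jam2.

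Of 17 genes of Wnt signalling and barrier control, all were tested and 3 were higher and 0 lower (median difference 1.30). The 3 were the endothelial transcription factors Sox18 (865 ± 274 CPM, 0 counts in mural-like wells, adjusted p = 1.38e-08), Sox17 (602 ± 146 CPM, 0 counts, 7.86e-07) and Foxq1 (112 ± 71.7 CPM, 4 counts, 0.000429, edgeR). Of 10 genes of vesicle transport and leak, 6 were tested and 0 passed (median difference 3.81). Plvap and Cav1 are given outside the rule by which list genes were named, and without their levels in other classes. Plvap, the diaphragm protein of leaky vessels, had 2 counts in all 87 endothelial-like wells, and Cav1, the caveolae protein, was at 591 ± 277 CPM. Against oligodendrocyte-like cells, where 7.32% of all genes were higher and 14.6% lower, the numbers higher and lower were 12 and 0 for nutrient transport, 5 and 1 for efflux, 6 and 1 for junctions, 12 and 0 for Wnt and barrier control and 4 and 0 for vesicle transport. Against RGL or astrocyte-like cells, where 5.97% of all genes were higher and 15.2% lower, they were 10 and 1, 4 and 1, 5 and 0, 8 and 0, and 0 and 2.

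The comparison of the study is between the antagomir and the scrambled oligonucleotide. In endothelial-like cells no member was called between treatments, nor was any other of the 7720 genes tested (0% called, edgeR). At an unadjusted p under 0.05 there were 163 genes, fewer than chance alone gives at that limit. DESeq2 called 66 genes, none of them a member. The adjusted p was 1.00 for each member. The median log2 difference (antagomir minus scrambled) was -0.10 for the members and -0.07 for all genes tested.

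Slc2a1 had the lowest unadjusted p of the members. Its level was 8105, 3519 and 9331 CPM in scrambled mice 1, 3 and 5, and 6606, 4031, 3128 and 4260 CPM in antagomir mice 2, 4, 6 and 8. The high values were those of mice 1, 2 and 5 of pool L5, but mouse 6 of the same pool had the lowest of all, and both the treatments and the pools overlapped (3519 to 4260 CPM in L6). The log2 difference was -0.71 with a 95% interval of -1.57 to 0.15 (unadjusted p = 0.0958, edgeR). Within pool L5 it was -0.86 and within sort day 1 it was -0.23; pool L6 and day 2 each kept only 1 scrambled mouse with enough wells, so no value could be fitted there. In RGL or astrocyte-like cells the Slc2a1 sums of the pools did not overlap, with 366 to 504 CPM in L5 and 106 to 341 CPM in L6, and each pool holds 2 mice of either treatment. Among all pairs of a member and a large class, this was the only one without overlap between the pools. The share of such pairs over all genes was not computed, and an effect of the pool was not tested.

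Ocln, the member with seed matches, was at 535, 401 and 622 CPM in the scrambled mice and at 411, 419, 180 and 514 CPM in the antagomir mice. The lowest value was that of mouse 6, and the groups overlapped. The log2 difference was -0.54 with an interval of -1.65 to 0.57. Abcb1a was at 386, 407 and 316 CPM in scrambled mice and at 514, 737, 338 and 465 in antagomir mice, a log2 difference of 0.36 (-0.65 to 1.38). Mfsd2a was at 881, 726 and 2812 CPM in scrambled mice and at 1356, 1852, 1732 and 1505 in antagomir mice, so that the scrambled mice held both the highest and the lowest value (0.03, -0.94 to 1.00).

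For the other members the log2 differences were 0.04 for Cldn5 (-0.52 to 0.60), -0.38 for Tjp1 (-1.75 to 0.99), -0.17 for Slc7a5 (-1.70 to 1.36), -0.46 for Abcg2 (-1.26 to 0.34), 0.00 for Slco1a4 (-0.73 to 0.73) and -0.03 for Slco1c1 (-0.65 to 0.59). Slco1c1, Cldn5 and Slco1a4 thus had the narrowest intervals, which all lie within 1 of 0 on the log2 scale. The intervals are not adjusted for the number of members, and these were picked as the narrowest. The shares of endothelial-like wells with counts were read by 10 exact two-sided permutation tests over 7 mice. The smallest p that 3 mice against 4 allow is 0.0571, so none of these tests could pass 0.05. That 0 did so carries no information on treatment.

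**Figure D4:**
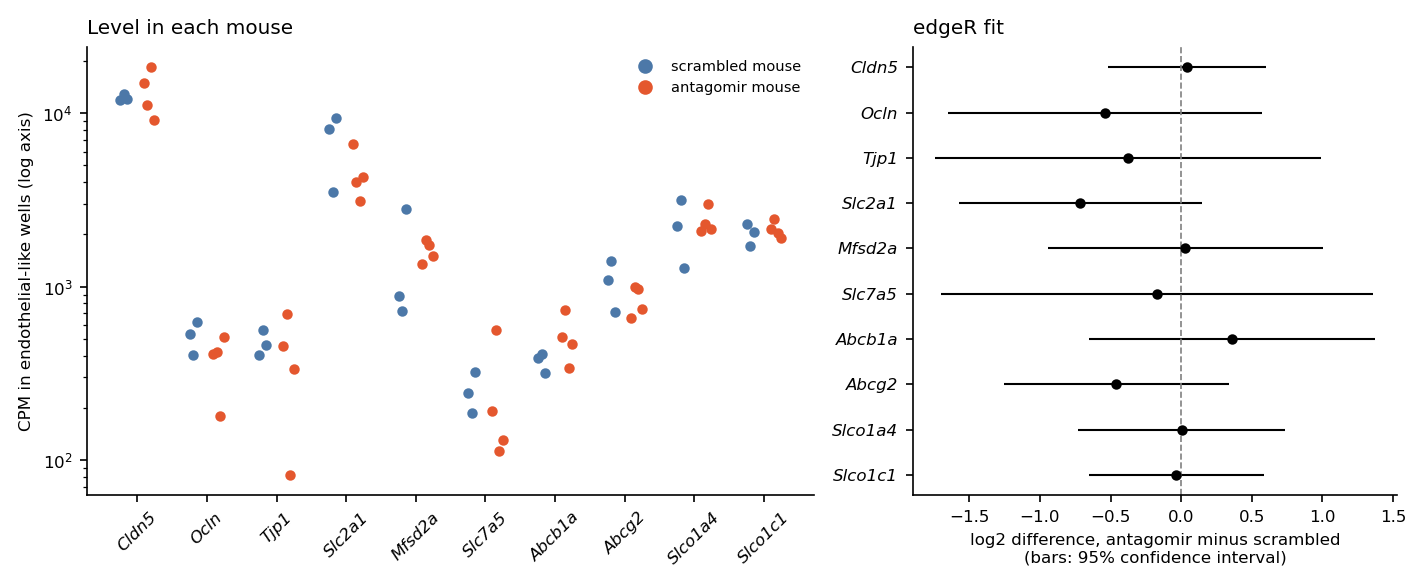
On the left each point is the level of a gene in the endothelial-like wells of 1 mouse (CPM, log axis), scrambled in blue and antagomir in orange. On the right points are fitted log2 differences, antagomir minus scrambled, with 95% intervals over 7 mice; all 10 intervals include 0, from -0.71 for Slc2a1 to 0.36 for Abcb1a.

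Endothelial marker sums overlapped between the treatments in these cells, with 33972 to 35743 CPM in antagomir and 30707 to 39457 CPM in scrambled mice. Mural marker sums ran from 478 to 1712 CPM and from 338 to 2817 CPM, and those of the blood list reached 2281 CPM in 1 scrambled mouse and 23.8 CPM at most in antagomir mice. Their part in the results was not tested.

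None of the other barrier genes was called by the same test. Among the genes of each list with the smallest unadjusted p were Lsr for the junctions (log2 difference -0.18), Abcc1 and Abcc4 for efflux (1.04 for Abcc4), Slc5a6 and Insr for nutrients (-0.70 for Insr), Vcam1 and Icam1 for vesicle transport and leak and Nkd1 and Foxq1 for Wnt and barrier control (-0.72 and 1.18), all with an adjusted p of 1.00. Fitted differences of Abcc1, Slc5a6 and Icam1 are not given, since they had 0 counts in several mice. Vcam1, a leukocyte adhesion molecule, had a log2 difference of -3.26 that rested on scrambled mouse 3, at 165 CPM against 0.595 to 12.2 CPM in the other mice, and was 1.99 without it. Icam1, another such molecule, was at 317, 2.82 and 53.4 CPM in scrambled mice 1, 3 and 5 and at 0, 63.0, 0 and 0 CPM in antagomir mice 2, 4, 6 and 8, from 7 wells with counts. Slc5a6, a carrier of biotin and pantothenate, was at 116, 41.1 and 36.8 CPM in scrambled mice 1, 3 and 5, at under 1 CPM in antagomir mouse 2 and at 0 in antagomir mice 4, 6 and 8, from 5 wells with counts of 87. Its unadjusted p was 0.00637 (edgeR), and DESeq2 called it (adjusted p = 0.00229; range over all alternatives 0.00229 to 1.00). Abcc1, an efflux pump, was at 0, 13.9 and 0 CPM in scrambled mice 1, 3 and 5 and at 46.8, 228, 134 and 120 CPM in antagomir mice 2, 4, 6 and 8, from 7 wells with counts (unadjusted p = 0.0709, edgeR).

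In the other classes few members passed the filter on low counts for the treatment comparison: 2 in the mural-like class, 4 in the oligodendrocyte-like class and 5 in the RGL or astrocyte-like class. None of them was called, nor was any gene of 6795, 10768 and 10090 tested (0% each, edgeR). At an unadjusted p under 0.05 these classes had 63, 212 and 159 genes, each fewer than chance alone gives, and DESeq2 called 22, 13 and 8. Slco1c1 in RGL or astrocyte-like cells averaged 1106 ± 213 CPM in antagomir and 1088 ± 209 CPM in scrambled mice (n = 4 each), a log2 difference of -0.01 with an interval of -0.54 to 0.52. Mfsd2a in the same cells had a log2 difference of -0.69 (-1.70 to 0.32), and Slc2a1 one of 0.11 (-0.88 to 1.10). There Tjp1 had a log2 difference of -0.41 (-1.73 to 0.91), and Slc7a5, with counts in few wells, one of 1.25 (-3.12 to 5.61). In oligodendrocyte-like cells the log2 difference was -0.06 for Slc2a1 (-0.57 to 0.45), -0.36 for Tjp1 (-1.07 to 0.34), -1.02 for Mfsd2a (-4.47 to 2.42) and -2.10 for Abcg2 (-6.23 to 2.04), which averaged 1.76 ± 3.37 CPM in antagomir and 7.63 ± 2.06 CPM in scrambled mice (n = 4 each). In mural-like cells it was -1.34 for Slc2a1 (-6.78 to 4.09) and -0.55 for Tjp1 (-2.78 to 1.68).

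Whether the response to the antagomir in endothelial-like cells differed from that in each other class was tested as an interaction with the mouse as a block. None of the 10 members was called against mural-like, oligodendrocyte-like or RGL or astrocyte-like cells, where 1 gene of 16407 (0.00609%) was called in each. That gene, singled out after its values were seen, is Sept8 (adjusted p = 0.000393, 0.000484 and 0.000899, edgeR). The lowest adjusted p of a member was 0.678, of Ocln against mural-like cells, in which it was nearly absent. Mfsd2a and Slc7a5 had 0 counts in mural-like wells, as Ocln had in oligodendrocyte-like wells. No difference in response could be estimated for these pairs, so their lack of a call says nothing. Other members were near 0 in a class compared, where the lack of a call says little. DESeq2 called 1 member in each of the 3 tests, Slco1c1 against mural-like and Slco1a4 against the other two, among 2443, 1515 and 1716 genes, in each case a gene that is near 0 in the class compared.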

How the data were processed

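Single nestin-GFP-sorted cells were processed with Smart-seq2, which has no molecular identifiers. Wilson intervals and floors cover counting error only. The intervals of fitted differences come from the fits over mice and rest on the same spread as their p-values, described below. The authors deposited raw read counts per gene symbol and well. Per the submitters' processing notes, FastQC, STAR 2.5.2, Subread, featureCounts 1.5.1, Seurat 2.3.1 and the build mm10 were used; the annotation release and the handling of strand and of reads with several matches are not given in these sources, so genes with close copies are uncertain. Mouse, treatment, sort day and sequencing pool come from the deposited well table, and each pairing of a sort day and a pool holds both treatments. Mice could not be tied to single libraries, so the mouse was taken as the replicate. Beyond sort day and pool, nothing says how mice are related. For treatment, p-values measure the spread between these mice. For classes and the interaction, they measure the spread left with the mouse as a block.

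Wells with 500 to 6000 detected genes were kept (716 of 768), and doublets were treated only by that upper limit. Wells were clustered with scanpy 1.11.5 (Python 3.11.15) on 2000 variable genes without the members and barrier lists (20 principal components, 15 neighbours, Leiden resolution 1). A name needed at least 3 markers of a list in 25% of the wells, with a marker among the 10 leading genes or 80% of the list detected; these limits were set after the clusters were seen. Counts were summed per mouse and class where at least 5 wells were held. They were tested with edgeR 4.0.16 (R 4.3.3), quasi-likelihood with TMM scaling and filterByExpr, and Benjamini-Hochberg adjustment over all genes tested (threshold 0.05). Classes were compared with the mouse as a block. CPM are the counts of such a sum scaled to a common total, and a pseudocount of 1 was used on the log2 scale.

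The members and the gene lists were chosen with earlier results of these data known. All 10 members are named for the classes and for treatment in endothelial-like cells, those past the filter for treatment in other classes, and for the interaction the counts called. From each barrier list, the text names the 3 genes with the smallest p in each direction among those called against mural-like cells, and the 2 with the smallest unadjusted p for treatment. Plvap, Cav1, Abcb1b and Slco1a5 are named outside this rule. One result that this rule names is not reported here. Like genes are the 3 with the highest Pearson r. The fits were tested on simulated data with known fold changes. There, treatment changes of 2-fold and 4-fold in endothelial-like cells were not recovered. Differences of these sizes between endothelial-like cells and mural-like or RGL or astrocyte-like cells were not recovered either. The lack of a call alone thus does not exclude such a change or class difference. Alternatives were DESeq2 1.42.0, limma 3.58.1, other filters, cluster settings and limits on wells, covariates, blocks, single pools and days, and each mouse left out. Promoters and the microRNA came from RefSeq (GRCm38.p6), and gene positions, exon lengths and untranslated regions from GENCODE M21.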

Additional observations from a re-analysis of the deposited data

Results flagged for a closer look

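In 28 groups of 4 mice (a member, a class and a treatment), 3 had a mouse that stood apart from the others by Dixon's test, which chance does in about 1 group of 20. Slc2a1 in mural-like cells was at 95.8 CPM in antagomir mouse 6, and at 0 to 0.765 CPM in the other 3 antagomir mice. Mfsd2a in oligodendrocyte-like cells was at 0 CPM in scrambled mouse 1, and at 36.7 to 44.2 CPM in the other 3 scrambled mice. Slc2a1 in RGL or astrocyte-like cells was at 106 CPM in scrambled mouse 3, and at 341 to 368 CPM in the others.

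Wells that were left out also held members. All 16 of 16 wells over 6000 detected genes had at least 3 members at 10 counts or more, and 14 of them had 10 counts of Cldn5. Of the 36 wells under 500 detected genes, 0 had 3 members at 10 counts, which allows a share of up to 8.33%.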

How the results depend on the processing

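DESeq2 called 4075, 5512 and 5626 genes between endothelial-like and the mural-like, oligodendrocyte-like and RGL or astrocyte-like classes, against 1378, 3283 and 3165 with edgeR, and with at least 10 wells per mouse 844 were called against mural-like cells. For treatment, DESeq2 called 66, 22, 13 and 8 genes in endothelial-like, mural-like, oligodendrocyte-like or RGL or astrocyte-like wells, where edgeR called 0. Without the filter on low counts 6 and 4 were called in endothelial-like and mural-like cells. With the replicate block (the 2 mice of a sort day and pool) 2 and 5 were called there, and 0 members. Mice of a block correlated by 0.0038 to 0.197 in their deviations from the group means. All these values were above 0, and they were highest in oligodendrocyte-like cells (0.0805 to 0.197). The main treatment fits left the block out, and whether mice of a block are alike was not tested. For the response between classes, DESeq2 called 2443, 1515 and 1716 genes and 1, 1 and 1 members. With at least 3 wells per mouse 0 genes were called against oligodendrocyte-like or RGL or astrocyte-like wells, and with a mouse left out 1 to 5 in each of the 3 tests.

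Some treatment differences, none of them called, changed sign with the setting. In endothelial-like cells these were, on the log2 scale, Tjp1 (0.14 within day 1), Mfsd2a (-0.30 within pool L5), Abcb1a (-0.03 with limma), Slco1a4 (-0.02 without the filter, 0.00 with pool as a covariate, -0.38 within day 1), Slco1c1 (0.05 with DESeq2, 0.02 with at least 10 wells, 0.02 with pool, 0.01 in wells with 1000 to 6000 genes, 0.06 within day 1), Slc7a5 (0.10 in wells with 1000 to 6000 genes, 0.59 within day 1), Lsr (0.04 with at least 10 wells, 0.10 with limma, 0.07 in wells with 1000 to 6000 genes, 0.15 within L5), Abcc4 (-0.70 with at least 10 wells, -0.31 within L5) and Vcam1 (0.34 with limma). In oligodendrocyte-like cells they were Tjp1 (0.17 within L5), Slc2a1 (0.18 with limma, 0.17 within L5, 0.08 within day 1) and Mfsd2a (0.36 within day 1). In RGL or astrocyte-like cells they were Tjp1 (1.20 within day 2), Slc2a1 (-0.13 within L6) and Slco1c1 (0.00 without the filter, 0.02 with pool, 0.03 with limma, 0.08 within L6, 0.24 within day 2). With each mouse left out in turn, endothelial-like differences ran from -0.12 to 0.19 for Cldn5, -0.31 to 0.85 for Mfsd2a, -0.29 to 0.26 for Slco1a4, -0.19 to 0.15 for Slco1c1 and -0.80 to 0.07 for Slc7a5, and over the 5 such fits in which Vcam1 was tested from -3.83 to 1.99 for that gene. They ran from -1.25 to 0.03 for Tjp1 in mural-like cells, from -0.26 to 0.09 for Slc2a1 in oligodendrocyte-like cells, and in RGL or astrocyte-like cells from -0.75 to 0.02 for Tjp1, -0.17 to 0.33 for Slc2a1 and -0.14 to 0.10 for Slco1c1. The cause was not tested. Within pool L6 and within day 2 no fit was run in endothelial-like cells, with 1 scrambled mouse each.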
